A study of Mus musculus with 6 samples.

Results

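The genes described here encode enzymes that make nucleotides, polyamines, serine and the folate-bound carbon units used to build bases. They were a list of 36 mouse gene symbols, and 33 of them had a probe set of their own among the 19937 genes of the table. Sms had probe sets that also list another gene and was not used, and Impdh2 and Amd1 were not analysed here. Levels were log2 expression values from Affymetrix arrays hybridised with amplified RNA of plasmacytoid dendritic cells (pDCs), the dendritic cells known for making type I interferon. The pDCs came from mouse spleen and carried B220 and SiglecH at the surface, per the labels. The groups were 3 samples labelled KO, from mice deficient in the transcription factor IRF8, and 3 samples labelled WT, from wild-type mice. The labels give no allele, age, sex or strain, and do not say whether the deletion was limited to some cells or whether samples came from separate animals. The p-values therefore rest on the variation among these 6 samples, and part of it may be technical.

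Purine bases are built step by step on phosphoribosyl pyrophosphate (PRPP), and pyrimidine bases are built first and joined to PRPP afterwards. Serine gives carbon units to folate, and these units enter purines and thymidylate. Polyamines are small cations made from ornithine. Cells that prepare to divide draw on these pathways, and MYC is known to activate many of their genes, Odc1 and Cad among the classic cases. The series title places MYC repression beside IRF8, so the enzymes bear on a question the study names. In bulk RNA, fewer cells of a type and less RNA per cell cannot be told apart.

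Irf8 measured 10.15, 10.49 and 10.79 in KO replicates 1 to 3, against 10.21, 9.97 and 10.24 in WT replicates 1 to 3. The values overlapped, and the labels leave unsaid where the gene was altered, so this level checks no label. Myc measured 9.69, 8.37 and 8.61 in KO, against 5.90, 5.92 and 6.20 in WT, with every KO value above every WT value. The pDC markers listed for a check were high in both groups, with 6 of 8 measured and a mean log2 level of 11.79 to 11.84 in KO arrays and 11.99 to 12.14 in WT arrays, and 1 of the 6, Ccr9, was called lower. KO replicate 1 stood apart, and its correlation across genes was 0.979 with KO replicate 2 and 0.977 with KO replicate 3, while those 2 correlated at 0.993. Its markers of mitosis (15 of 16 measured) averaged 7.54, against 5.48 and 5.63 in the other KO arrays and 5.01 to 5.12 in WT arrays. Its neutrophil granule genes (9 of 9 measured) averaged 8.81, against 5.57 and 6.25 in the other KO arrays and 4.72 to 5.97 in WT arrays. Of 4 plasma cell markers, Prdm1 and Sdc1 were called higher in KO. Jchain (0.77) and Xbp1 (-0.25) were not called, and Jchain was low on WT replicate 1 alone, at 4.49. The 4 averaged 8.07 to 8.93 in KO arrays and 6.20 to 7.38 in WT arrays. Of the conventional dendritic cell markers, Clec9a, Cadm1, Clec10a and Cd209a were called lower and Itgam higher. Xcr1 (0.12), Batf3 (-0.08) and Sirpa (-0.50) were not called. Of 5 measured B cell markers Cd79a was called higher, by 1.65. Ebf1 (0.57), Pax5 (0.32), Cd79b (-0.08) and Ms4a1 (-0.17) were not called. The 5 averaged 5.28 to 5.57 in KO arrays and 4.84 to 5.06 in WT arrays. Genes of handling stress (15 of 16 measured) averaged 10.02 to 10.36 in KO arrays and 9.70 to 10.01 in WT arrays, and 1 of them, Ier3, was called higher. None of the measured T cell, monocyte and macrophage or erythroid markers was called, and of the NK cell markers Klrk1 was called lower. The part of these markers in the results below was not tested.

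By limma, with p-values adjusted over all 19937 genes, 2 of the 33 were higher in KO pDCs, Paics and Ctps2, and 0 were lower. Over all genes 2.3% were called higher and 2.08% lower. These shares include dim genes, while 31 of the 33 were brighter than the median gene. With only genes brighter than the median, 867 of 9968 genes were called in either direction, beside 2 of these 31. The other shares of all genes given here were not recomputed for bright genes. At an unadjusted p under 0.05, 9 of the 33 were higher and 0 lower, where all genes gave 7.58% and 8.49%. In 8 of the 33 every KO value lay above every WT value, and in 0 every KO value lay below, where all genes gave 8.71% and 11.7%. The differences ran from -0.56 to 0.66 log2 units with a median of 0.25, against a median of -0.04 over all genes. Apart from these 2 genes, no single difference passed the test against the spread between arrays. Without KO replicate 1 the median was 0.15, and 3 of the 33 were called higher, Paics, Ctps2 and Phgdh, and 0 lower, where 3.91% of all genes were called higher and 3.61% lower.

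**Figure D1:**
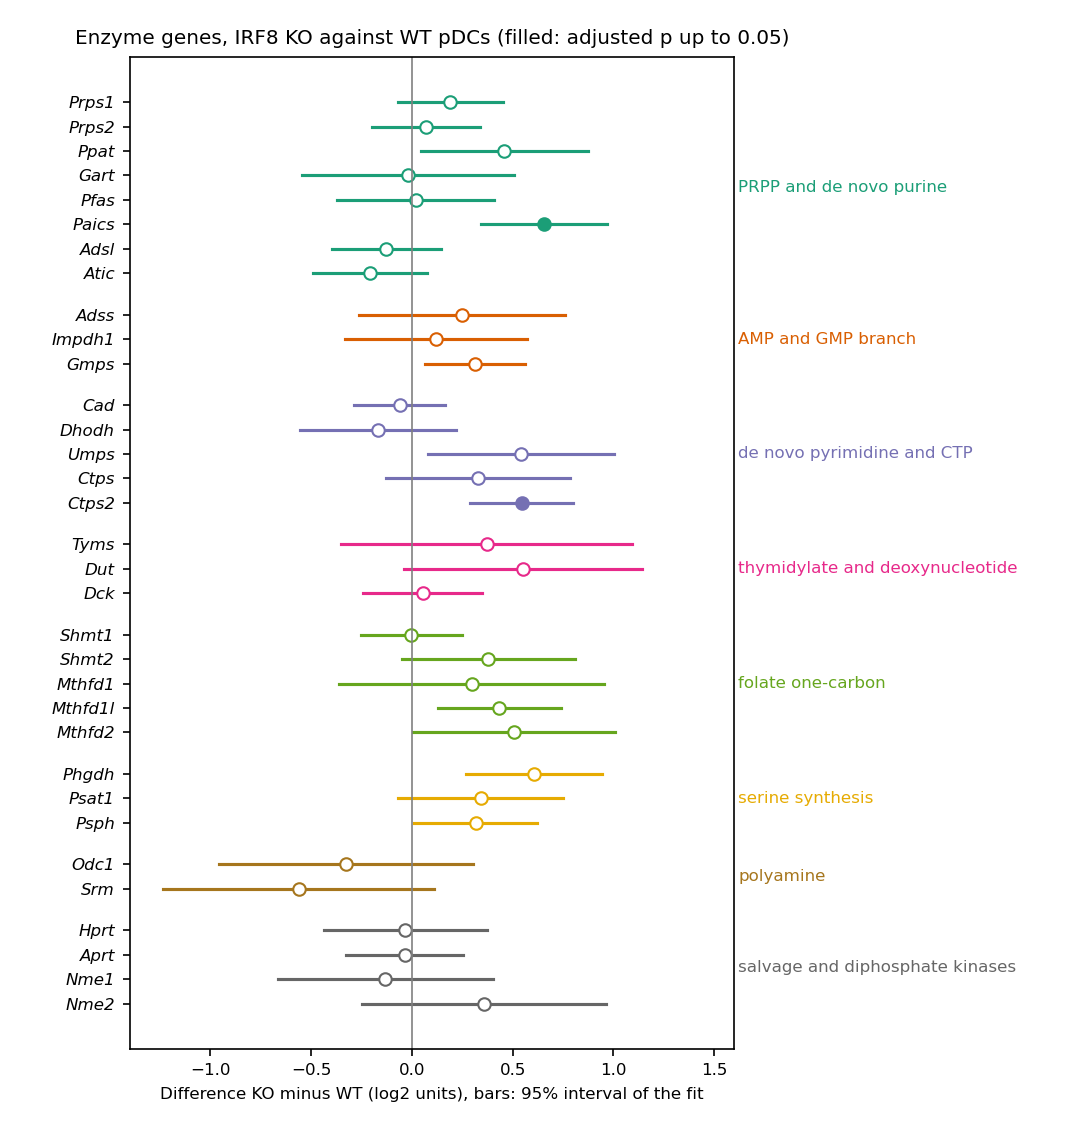
Difference of KO minus WT in log2 units for the 33 enzyme genes, grouped by branch of the pathway, with bars for the 95% interval of the limma fit. The filled points, Paics at 0.66 and Ctps2 at 0.54, are the genes with an adjusted p up to 0.05, and the points run from Srm at -0.56 to Paics at 0.66.

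Paics encodes the enzyme that carries out the middle steps of purine synthesis, a carboxylation and the joining of aspartate. It measured 9.36, 9.72 and 9.69 in KO, against 9.05, 8.84 and 8.92 in WT. The lowest KO value was that of replicate 1, and it still lay above the highest WT value. Paics was 1.57-fold higher in KO, by 0.66 log2 units (SE 0.13), and limma gave an adjusted p of 0.0386. Leaving out any single array other than KO replicate 1 ended this call, with adjusted p-values from 0.0699 without WT replicate 1 to 0.16 without KO replicate 2, while leaving out KO replicate 1 gave 0.0124. The call was also lost with arrays centred on their medians (0.0618), with a variance trend (0.0643) and in an unequal-variance test (0.336). The difference itself ran from 0.57 to 0.83 over all 16 alternatives.

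Ctps2 encodes a CTP synthase, which makes CTP from UTP. It measured 7.91, 7.88 and 8.01 in KO, against 7.32, 7.32 and 7.52 in WT. The groups were well apart, and KO replicate 1 lay between the other KO arrays. Ctps2 was 1.46-fold higher in KO, by 0.54 log2 units (SE 0.11), and limma gave an adjusted p of 0.0365. Dropping any 1 array except KO replicate 1 removed the call (adjusted p from 0.0552 without WT replicate 3 to 0.149 without KO replicate 3, and 0.0455 without KO replicate 1). It was also lost without both arrays numbered 1 (0.0862), with centred arrays (0.0543), with a variance trend (0.0794) and in an unequal-variance test (0.243). Over all 16 alternatives the difference ran from 0.51 to 0.61.

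The start of Paics lies 276 bases from that of Ppat, which runs the other way and encodes the amidotransferase of the first committed purine step. By strand and position the genes overlap at their starts, and Ppat runs into the Paics window. The promoters of these neighbours and of Ctps2 are shown because they belong to the called genes and to the partner of one of them. Sequences are RefSeq windows around the gene start on GRCm38.p6, and Ctps2 has 3 such windows, of which the one with the lowest coordinates is printed. Capitals mark CACGTG, the E-box that MYC binds with MAX, which reads the same on both strands.
Paics chr5:76951052-76951351 plus strand: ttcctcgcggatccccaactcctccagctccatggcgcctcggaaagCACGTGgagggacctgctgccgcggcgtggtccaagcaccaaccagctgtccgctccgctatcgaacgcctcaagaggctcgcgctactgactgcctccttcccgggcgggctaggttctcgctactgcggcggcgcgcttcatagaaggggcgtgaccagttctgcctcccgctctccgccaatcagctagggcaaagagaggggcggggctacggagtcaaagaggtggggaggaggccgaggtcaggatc
Ppat chr5:76951529-76951828 minus strand: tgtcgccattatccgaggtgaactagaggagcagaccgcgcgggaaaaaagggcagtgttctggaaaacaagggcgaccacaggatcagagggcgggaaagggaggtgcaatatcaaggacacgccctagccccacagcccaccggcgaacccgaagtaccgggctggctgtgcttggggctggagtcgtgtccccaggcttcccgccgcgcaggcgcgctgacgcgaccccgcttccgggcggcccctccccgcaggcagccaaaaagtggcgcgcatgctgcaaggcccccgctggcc
Ctps2 chrX:162901310-162901609 plus strand: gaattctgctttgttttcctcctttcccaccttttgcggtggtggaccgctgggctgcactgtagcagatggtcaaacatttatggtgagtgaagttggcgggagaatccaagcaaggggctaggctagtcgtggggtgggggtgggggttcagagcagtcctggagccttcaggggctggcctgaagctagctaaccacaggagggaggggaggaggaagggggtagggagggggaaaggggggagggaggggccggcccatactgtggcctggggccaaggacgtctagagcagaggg

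Windows of this kind were found for 33 of the 36 listed genes, and 6 of these held CACGTG, or 18.2%. Among all 27025 genes with a window, 8.09% held it. The stretches around each match are shown so that the flanks can be compared.
Paics chr5:76951087-76951116 plus strand: cgcctcggaaagCACGTGgagggacctgct
Tyms chr5:30073669-30073698 minus strand: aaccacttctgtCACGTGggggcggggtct
Atic chr1:71557137-71557166 plus strand: ggacctcggggtCACGTGgggtcgacacgc
Nme1 chr11:93968037-93968066 minus strand: agcttgatacgcCACGTGggctcgcctttg
Nme1 chr11:93968273-93968302 minus strand: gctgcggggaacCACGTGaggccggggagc
Impdh2 chr9:108560314-108560343 plus strand: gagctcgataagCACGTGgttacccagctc
Sms chrX:157492466-157492495 minus strand: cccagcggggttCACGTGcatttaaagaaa
Of these 6 genes, 4 were measured, and their differences went both ways. Paics was the 1 that was called. Tyms differed by 0.37, Nme1 by -0.13 and Atic by -0.21, none of them called. The windows of Ppat, Ctps2, Cad and Odc1 held no CACGTG. The Paics match lies downstream of the Ppat start, beyond the end of the Ppat window, so by position it cannot be given to Paics alone. Each window covers only 250 bases before the gene start and 50 after it, and sequence outside the windows was not searched. A match in a promoter is a description of its letters, and binding was not measured.

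The other genes of purine synthesis gave no call. Ppat measured 6.99, 6.53 and 7.01 in KO, against 6.23, 6.27 and 6.65 in WT, so the groups overlapped in a single pair, KO replicate 2 and WT replicate 3. Its difference was 0.46 (SE 0.18, limma adjusted p = 0.252). The remaining genes lay nearer to 0, from -0.21 for Atic to 0.19 for Prps1. Atic carries out the last steps to inosine monophosphate (IMP), and Prps1 and its isozyme Prps2 make PRPP. Adsl, a lyase used on the way to IMP and again on the way to AMP, differed by -0.13. Gart and Pfas, enzymes of the early steps, differed by -0.02 and 0.02, and their KO arrays spread more widely than the WT arrays, with SDs of 0.44 and 0.30 in KO against 0.20 and 0.13 in WT. Paics was called while none of the 7 other genes of its branch was. Whether Paics changed more than they did was not tested, and the 95% interval of Ppat, 0.05 to 0.87, includes the 0.66 of Paics.

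From IMP, Adss leads to AMP, and Impdh1 and Gmps lead to GMP. All 3 had positive differences, and none was called. Gmps, GMP synthase, measured 8.76, 8.75 and 8.80 in KO, against 8.44, 8.35 and 8.58 in WT. Its KO values were nearly equal and lay above all WT values (difference 0.31, SE 0.11, limma adjusted p = 0.193). Adss measured 8.67, 9.19 and 9.18 in KO, against 8.35, 9.06 and 8.87 in WT. In both genotypes replicate 1 was the lowest array for Adss, and its difference of 0.25 had an interval of -0.26 to 0.76. Impdh1, an IMP dehydrogenase, differed by 0.12, and its groups overlapped.

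In pyrimidine synthesis, the first and middle enzymes differed from the last ones in the sign of their values. Cad, which encodes the enzyme of the opening steps, measured 5.83, 5.83 and 5.89 in KO, against 5.89, 5.95 and 5.89 in WT. Its values were close to each other on every array. The interval of its difference, -0.29 to 0.17, leaves out shifts of this signal as large as those of Paics and Ctps2. Cad was dim, with a 6-array mean of 5.88 at the 53.7th percentile of genes. Whether its signal follows the transcript at this level was not tested. Dhodh, the mitochondrial dihydroorotate dehydrogenase, differed by -0.17 (adjusted p = 0.721). Umps, which completes UMP, measured 7.18, 7.31 and 7.79 in KO, against 6.60, 7.00 and 7.06 in WT. Each KO value lay above each WT value, with a wide spread in both groups (difference 0.54, SE 0.20, limma adjusted p = 0.222). Ctps, the other CTP synthase, differed by 0.33 (adjusted p = 0.498), with KO and WT arrays overlapping.

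Serine synthesis was the branch whose 3 genes all had positive differences of 0.32 or more. Phgdh, which encodes the dehydrogenase that diverts a glycolytic intermediate into serine, measured 7.21, 7.50 and 7.52 in KO, against 6.98, 6.84 and 6.60 in WT. Every KO value lay above every WT value, and KO replicate 1 was the nearest to WT. The difference was 0.61 (SE 0.14, limma adjusted p = 0.0666), which misses the threshold. It was called without KO replicate 1 (0.71, adjusted p = 0.0297), without both arrays numbered 1 (0.0234) and with array weights (0.0212). Psat1, the transaminase of the middle step, measured 6.02, 6.48 and 6.57 in KO, against 5.81, 6.05 and 6.19 in WT. Its KO replicate 1 lay within the WT range (difference 0.34, limma adjusted p = 0.416). Psph, the phosphatase that releases serine, measured 7.19, 7.23 and 7.19 in KO, against 7.11, 6.68 and 6.87 in WT. Its KO values were almost the same and above all WT values (difference 0.32, limma adjusted p = 0.289). Atf4, a transcription factor known to activate this branch, differed by 0.09 (limma adjusted p = 0.859). Asns, asparagine synthetase, which shares regulators with the branch, differed by 0.14 (limma adjusted p = 0.767). Asns was dim, with means of 4.91 in KO and 4.76 in WT, at the 30.3rd percentile of genes. ATF4 protein was not measured, and whether ATF4 acts on these genes was not tested.

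Among the 5 folate enzymes of the list, the mitochondrial ones had the larger values, and none of the 5 was called. Mthfd2, a dehydrogenase and cyclohydrolase of mitochondria, measured 7.24, 7.28 and 7.39 in KO, against 6.46, 6.63 and 7.31 in WT. The KO arrays were close together, and WT replicate 3 lay among them (difference 0.51, limma adjusted p = 0.302). Without WT replicate 3 the difference was 0.76 and was called (adjusted p = 0.0366). Mthfd1l, which releases formate from mitochondria, measured 6.08, 5.99 and 6.25 in KO, against 5.85, 5.52 and 5.64 in WT, with no overlap (difference 0.43, SE 0.13, limma adjusted p = 0.137). Shmt2, the mitochondrial serine hydroxymethyltransferase, differed by 0.38 (adjusted p = 0.383). The cytosolic enzymes Shmt1 and Mthfd1 differed by -0.004 and 0.30 (adjusted p = 0.994 and 0.706). Of the further pathway genes described below, Mthfd2l and Aldh1l2, also mitochondrial, differed by -0.10 and -0.04. The levels were unequal, with 6-array means of 5.12 for Mthfd1, 5.88 for Shmt1, 5.89 for Mthfd1l, 6.73 for Shmt2 and 7.05 for Mthfd2. Mthfd2l and Aldh1l2 were dim, at the 31.0th and 17.6th percentiles of genes. Differences of dim genes may be understated, and whether the compartments differ was not tested.

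The thymidylate genes were high in a single KO array. Tyms, thymidylate synthase, measured 7.85, 6.79 and 6.59 in KO, against 6.71, 6.87 and 6.54 in WT. KO replicate 1 was far above the rest, and the other KO arrays lay in the WT range. Dut, the dUTPase that supplies its substrate, measured 7.73, 6.74 and 6.90 in KO, against 6.59, 6.74 and 6.38 in WT, with the same array on top. Dut differed by 0.55 (limma adjusted p = 0.352) and Tyms by 0.37 (adjusted p = 0.656). Without KO replicate 1, the difference was 0.25 for Dut and -0.02 for Tyms. S phase markers (20 of 20 measured) averaged 7.22 in KO replicate 1, 6.34 and 6.38 in the other KO arrays and 6.16 to 6.21 in WT arrays, and 1 of them, Mcm6, was called higher over the 6 arrays. Dck, a kinase that salvages deoxycytidine, differed by 0.05, and its SD was 0.195 in KO and 0.012 in WT.

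**Figure D2:**
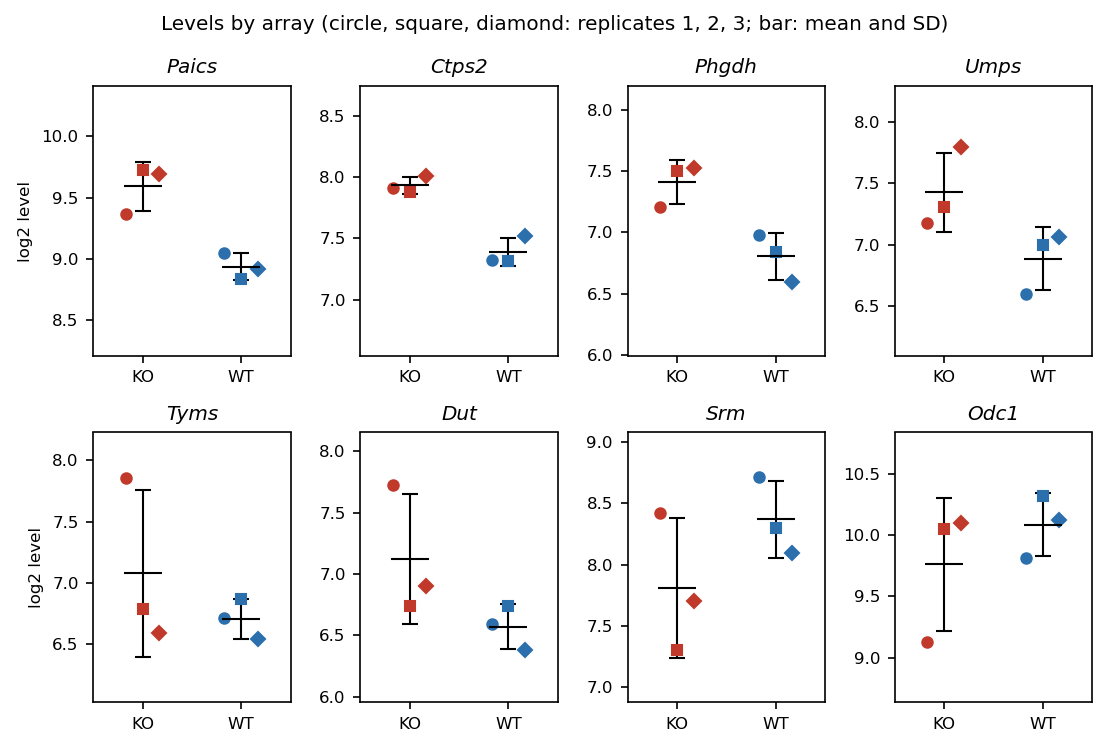
Log2 level on each array for 8 enzyme genes, KO left of WT, with markers for replicates 1, 2 and 3 and bars for the mean and SD of 3 arrays. Paics, Ctps2, Phgdh and Umps have no overlap between KO and WT, while in Tyms and Dut KO replicate 1 alone is far above WT, at 7.85 and 7.73.

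In the polyamine branch both measured genes had negative differences over all arrays, neither of them called. Srm, spermidine synthase, measured 8.42, 7.30 and 7.70 in KO, against 8.71, 8.30 and 8.10 in WT. KO replicates 2 and 3 lay below all WT arrays, and KO replicate 1 lay among them (difference -0.56, SE 0.29, limma adjusted p = 0.417). In both genotypes replicate 1 was the highest array for Srm. Without KO replicate 1 the difference was -0.87 and still not called (limma adjusted p = 0.0517). Odc1, ornithine decarboxylase, measured 9.13, 10.05 and 10.10 in KO, against 9.81, 10.32 and 10.12 in WT. Here replicate 1 was the lowest array in both genotypes (difference -0.33, limma adjusted p = 0.655). Without KO replicate 1 the difference was -0.01. The second, dimmer Odc1 probe set gave 8.03, 9.26 and 9.52 in KO, against 8.74, 9.17 and 9.37 in WT. Replicate 1 was the lowest array of both genotypes there too, but the sets disagreed on the rest: the dimmer one differed by -0.16 over all arrays and by 0.30 without KO replicate 1. The direction of Odc1 is therefore uncertain, and whether either probe set also reads a copy of the gene elsewhere in the genome was not tested. Azin1, an inhibitor of the antizyme that degrades ornithine decarboxylase, differed by 0.36 (limma adjusted p = 0.566), and by 0.65 without KO replicate 1 (adjusted p = 0.0291).

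The salvage genes and the nucleoside diphosphate kinases were not called. Hprt and Aprt, which return free purine bases to nucleotides, differed by -0.03 and -0.04. Nme2, a kinase that makes triphosphates, measured 7.26, 7.36 and 8.12 in KO, against 7.55, 7.22 and 6.89 in WT. Its positive difference of 0.36 rested on KO replicate 3, and without that array it was 0.09. Nme1 measured 9.32, 8.57 and 8.50 in KO, against 9.12, 8.91 and 8.75 in WT. KO replicate 1 was above and the other KO arrays below the WT range, for a difference of -0.13 (limma adjusted p = 0.861). Nme1 and Nme2 are close paralogs, and a probe set for one may also bind RNA of the other.

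Isozymes were set side by side in 5 pairs, with Impdh1 and Impdh2 left out, by the difference between their 2 KO minus WT values. It was 0.22 for Ctps2 over Ctps, 0.12 for Prps1 over Prps2, 0.38 for Shmt2 over Shmt1, 0.49 for Nme2 over Nme1 and 0.14 for Mthfd1l over Mthfd1. A two-sided exact permutation test gave p from 0.20 to 0.90 (Benjamini-Hochberg adjusted over the 5 pairs 0.625 to 0.90). With 3 against 3 arrays it cannot go below 0.10, so it could call no pair different and does not show that isozymes moved alike.

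By the median SD, the KO arrays were less alike than the WT arrays in these genes, a difference that was described and not tested. The median SD was 0.27 in KO and 0.19 in WT for the 33, against 0.15 in KO and 0.16 in WT over all genes. The KO SD was the larger in 20 of the 33 (60.6%), where all genes gave 47.8%. Branch medians went the other way for the folate (0.13 in KO, 0.24 in WT), pyrimidine (0.15 and 0.25) and serine genes (0.18 and 0.19). In the remaining branches the KO median was the larger. KO replicate 1 lay over 0.5 log2 units above the mean of the other KO arrays in 7 of the 33 (21.2%) and as far below in 4 (12.1%), where all genes gave 9.05% and 5.26%. Those above were Tyms, Srm, Dut, Nme1, Mthfd1, Gart and Hprt, and those below were Odc1, Impdh1, Adss and Psat1. The 8 genes with every KO value above every WT value were Prps1, Paics, Gmps, Umps, Ctps2, Mthfd1l, Phgdh and Psph. In them KO replicate 1 lay from 0.27 (Prps1) to 0.52 (Ctps2) above the WT mean. That it lay above follows from how the 8 were picked and says nothing on whether this array resembles the others.

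**Figure D3:**
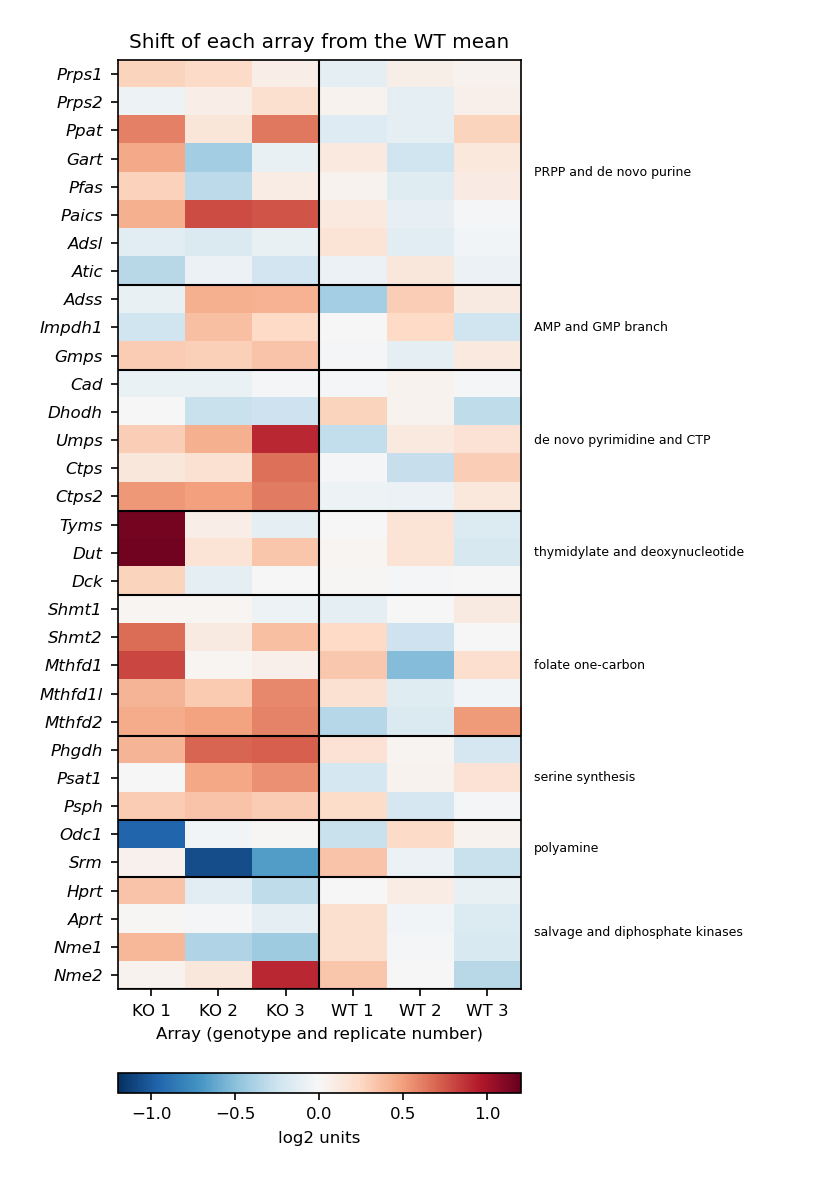
Shift of every array from the WT mean in log2 units for the 33 enzyme genes (rows, by branch), KO arrays left of WT arrays, with red for higher and blue for lower. KO replicate 1 has the strongest red, Tyms at 1.15 and Dut at 1.16, and a blue field for Odc1 at -0.95, while Ctps2 is red in all 3 KO arrays, at 0.52, 0.49 and 0.62.

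Further genes of these pathways came from a list of 96, of which 82 were measured. Of these, 1 was called higher in KO and 3 lower by limma, or 1.22% and 3.66%, beside 2.3% and 2.08% of all genes, and 5 higher and 9 lower had an unadjusted p under 0.05, where all genes gave 7.58% and 8.49%. Without KO replicate 1 the counts among the 82 were 2 higher and 4 lower, where all genes gave 3.91% and 3.61%. Adk, adenosine kinase, which makes AMP from adenosine, measured 5.71, 6.09 and 6.09 in KO, against 7.44, 7.53 and 7.45 in WT. The groups were far apart, and every array of a group was near the others. Adk fell by 1.51 log2 units (SE 0.13, limma adjusted p = 0.00122), the largest difference of the 82 in either direction. It stayed called without any single array (adjusted p up to 0.0093), and an unequal-variance test was the 1 of 16 alternatives that did not call it (0.256).

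Adssl1, an isozyme of adenylosuccinate synthase known from muscle, measured 5.86, 6.01 and 6.06 in KO, against 6.77, 6.57 and 6.72 in WT. Ampd3, an AMP deaminase, measured 6.51, 6.72 and 6.35 in KO, against 7.14, 7.41 and 7.09 in WT. Neither gene had overlapping groups. Adssl1 fell by 0.71 log2 units (limma adjusted p = 0.0135), and its call was lost without KO replicate 2, WT replicate 1 or WT replicate 3 (adjusted p from 0.0505 to 0.0592) and in an unequal-variance test (0.173). Ampd3 fell by 0.69 (adjusted p = 0.0393), and dropping any 1 array removed the call (0.0523 to 0.144), with quantile normalization (0.0558), with a variance trend (0.0557), without both arrays numbered 1 (0.0712) and in an unequal-variance test (0.299). The other AMP deaminases, Ampd1 and Ampd2, differed by -0.04 and -0.14 and were not called.

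Cmpk2, a mitochondrial nucleotide kinase known as an interferon-induced gene, measured 6.18, 5.89 and 5.85 in KO, against 5.19, 5.09 and 4.72 in WT. All KO arrays were higher, and Cmpk2 rose 1.96-fold, or 0.97 log2 units (SE 0.16, limma adjusted p = 0.0157). The call was lost without KO replicate 2 (0.0568) or WT replicate 2 (0.0518) and in an unequal-variance test (0.28). Rrm1, the large subunit of ribonucleotide reductase, measured 7.80, 6.98 and 6.53 in KO, against 6.24, 5.45 and 5.91 in WT. It had no overlap and the largest positive difference of the 82, 1.24, but was not called (limma adjusted p = 0.099), and it was 0.89 without KO replicate 1 (adjusted p = 0.0805). Uck1, a uridine and cytidine kinase, differed by 0.76 and missed the threshold (limma adjusted p = 0.0545). Rrm1 and Uck1 were singled out after their values were seen.

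**Figure D4:**
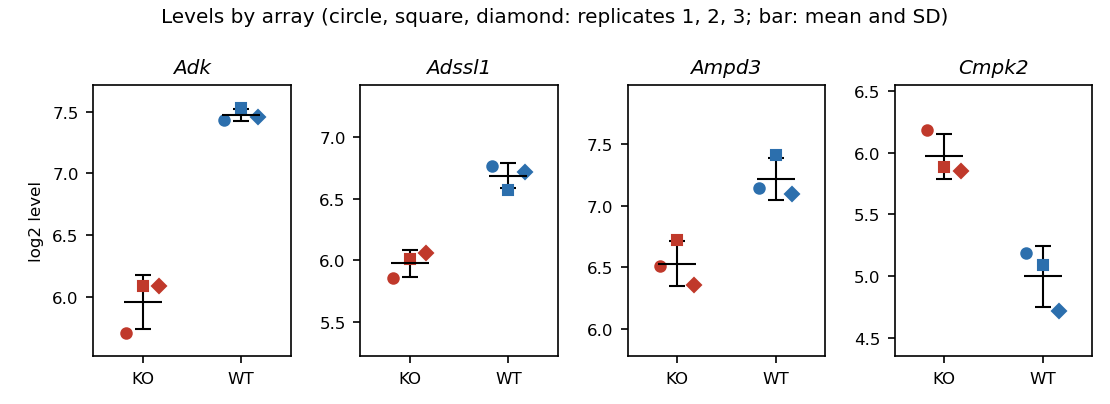
Log2 level on each array for the 4 further pathway genes that were called, KO left of WT, with markers for replicates 1, 2 and 3 and bars for the mean and SD of 3 arrays. The KO values of Adk, from 5.71 to 6.09, lie far below its WT values, from 7.44 to 7.53, and in Cmpk2 the KO values are the higher ones.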

How the data were processed

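Log2 expression levels of splenic pDCs were analysed in 3 KO and 3 WT samples. The authors deposited 1 log2 value per probe set and array for 34760 probe sets. Their range shows the log2 scale. For the software, background correction and normalization, the labels used here give no name. Array medians lay between 5.53 and 5.56, so a change of all transcripts in 1 direction cannot be seen. Probe sets were named by the platform's annotation table, and 21640 had 1 symbol. The brightest probe set by the mean of 6 arrays stood for a gene, and no dim genes were removed. All 34 probe sets of the enzyme genes shared a RefSeq transcript (GRCm38.p6) with their gene. Genotypes were compared by limma 3.58.1 in R 4.3.3 (lmFit, eBayes, no covariates), two-sided, with Benjamini-Hochberg adjustment over all genes and a threshold of 0.05. Differences are KO minus WT, and group errors are SDs. The fit was tested on simulated data with the spread of the WT arrays. It called 20% of simulated differences of 0.5 log2 units and 67.6% of those of 1 unit. A gene that was not called may therefore still differ by such amounts. The number of arrays limits the precision.

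Alternatives were quantile normalization, centring on array medians, genes brighter than the median, array weights (statmod 1.5.0), averaging the probe sets of each gene, an unequal-variance test, probe sets matched to RefSeq, a robust fit with a variance trend, a block for the replicate number, leaving out each array and leaving out both arrays numbered 1. Values of every array are given for called genes and for the 2 genes of each branch with the largest differences, and for others where stated. The genes, branches and lists were chosen with earlier results of these data known. Protein sequences were not used here.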

Additional observations from a re-analysis of the deposited data

How the results depend on the processing

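The 2 higher enzyme genes became 0 with arrays centred on their medians, with a variance trend and in an unequal-variance test, and 0 to 3 when single arrays were left out. The count of lower ones was 0 under every alternative run. The median difference of the 33 genes was 0.14 to 0.22 when single arrays were left out. Among the further pathway genes, the 1 higher gene became 2 with quantile normalization, with centred arrays and with array weights, 4 with the replicate block, 3 without both arrays numbered 1, 0 in the unequal-variance test, and 0 to 2 without single arrays. The 3 lower ones became 0 in the unequal-variance test and 1 to 4 without single arrays. Over all genes, 874 calls became 1363 with array weights, 1362 with the replicate block, 4 in the unequal-variance test, 1382 without both arrays numbered 1, and 451 to 1499 without single arrays. With the replicate block, 2 enzyme genes were higher and 0 lower. The numbers are not taken as pairs, because the labels do not say that a number marks a shared animal, litter or day. Deviations of same-numbered arrays correlated at 0.379, 0.097 and 0.252, and the 0.379 of the arrays numbered 1 was the highest of any KO and WT pair. KO replicate 2 correlated best with WT replicate 3 (0.20). Whether same-numbered arrays share a source was not tested. Of 319 values of the 20 genes followed singly, 277 kept their direction and side of the threshold, 35 lost the call, 4 gained it and 3 turned sign: Tyms without both arrays numbered 1 (-0.015) and without KO replicate 1 (-0.017), and Nme1 without KO replicate 3 (0.018). Without single arrays Tyms ran from -0.017 to 0.62 and Nme1 from -0.39 to 0.018. Gart, Pfas, Impdh1, Dck, Shmt1, Hprt and Aprt, all near 0, also turned sign in some of the alternatives. Where no value shows the cause of a change, it was not tested.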
